A study of Mus musculus with 6 samples.

Results

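Iron uptake, storage and hepcidin genes were examined in mouse liver RNA sequencing. The 10 genes were listed by name with earlier results of these data known. They were taken from the 54532 genes of the count table: Hamp, Hamp2, Hjv (listed as Hfe2), Tfr2, Tfrc, Trf, Fth1, Ftl1, Slc40a1 and Hmox1. All 10 passed the filter on low counts that left 13706 genes for testing. The livers came from mice aged 5 weeks, 3 labelled Ctrl and 3 labelled Fam210aHKO. In the latter Fam210a, which encodes a mitochondrial protein, had been knocked out in hepatocytes only. The promoter that drives the recombinase and the exact control genotype are not stated in the labels. Nor do the labels say that each sample is a separate animal, so the p-values cover only the spread among these libraries, which may be technical. In the genotype label, knockout replicates 2 and 3 carry other gene numbers than Fam210a. The titles, which name Fam210aHKO for all 3, set the groups.

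The liver is both the main iron store of the body and the source of hepcidin, the peptide hormone encoded by Hamp. Hepcidin binds ferroportin, the iron exporter encoded by Slc40a1, and causes its removal from the cell surface, so that less iron enters plasma. Hepatocytes set hepcidin output through BMP ligands from sinusoidal endothelial cells, the BMP co-receptor hemojuvelin (Hjv), transferrin receptor 2 (Tfr2), and inflammatory signals acting through IL-6 and STAT3. Inside the cell, iron-regulatory proteins bind a hairpin called the iron-responsive element (IRE), which blocks translation of ferritin mRNA and protects transferrin receptor mRNA from decay.

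The libraries held between 12.5 and 19.7 M counts (1 M is 1e6). Fam210a itself was 119, 136 and 162 CPM (counts per 1e6 of the library) in Ctrl and 31.7, 28.6 and 44.2 CPM in the knockout livers. It fell by 1.99 on the log2 scale (adjusted p = 4.42e-05). Knockout replicate 1 stood apart in Lars2, at 3080.1 CPM where every other library had 23.3 to 29.2 CPM. Knockout replicate 3 stood apart in red-cell RNA, with Hba-a1 at 112 CPM against 7.93 to 17.7 CPM elsewhere. CPM here are scaled by TMM, a factor per library that sets the typical gene equal between libraries. A call means an adjusted p under 0.05 in edgeR's quasi-likelihood test over all tested genes.

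The scaling mattered. The TMM factors lay between 0.797 and 0.887 in Ctrl and between 1.16 and 1.19 in the knockout livers. With TMM the median log2 fold change of all tested genes was 0.02, and with library totals alone it was 0.47. Each gene's value moves up by about that difference when library totals are used, and the members whose sign turned are named where they occur.

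Of the 10 iron genes, 1 rose (Hmox1), 2 fell (Tfr2 and Hamp2) and 7 were not called. Without Ctrl replicate 1, or without knockout replicate 2 or 3, 1 member was called lower, and without Ctrl replicate 2 there were 4. Without knockout replicate 3, 2 were called higher, and without knockout replicate 1 the counts were 1 higher and 2 lower. With the replicate number as a block, 2 were higher and 3 lower. In the main fit 14.0% of all tested genes were called higher and 13.5% lower, so the members' shares of calls were near those of the whole table. With library totals 3 members were called higher (Fth1, Ftl1 and Hmox1) and 1 lower (Tfr2), where the table had 42.7% higher and 6.33% lower. The 3 libraries of each group did not overlap for 2 genes that were higher in the knockout livers and 3 that were lower. That also held for 42.7% of all tested genes. The median log2 fold change of the members was -0.34, beside 0.02 for all tested genes, and with library totals it was 0.11 beside 0.47.

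**Figure D1:**
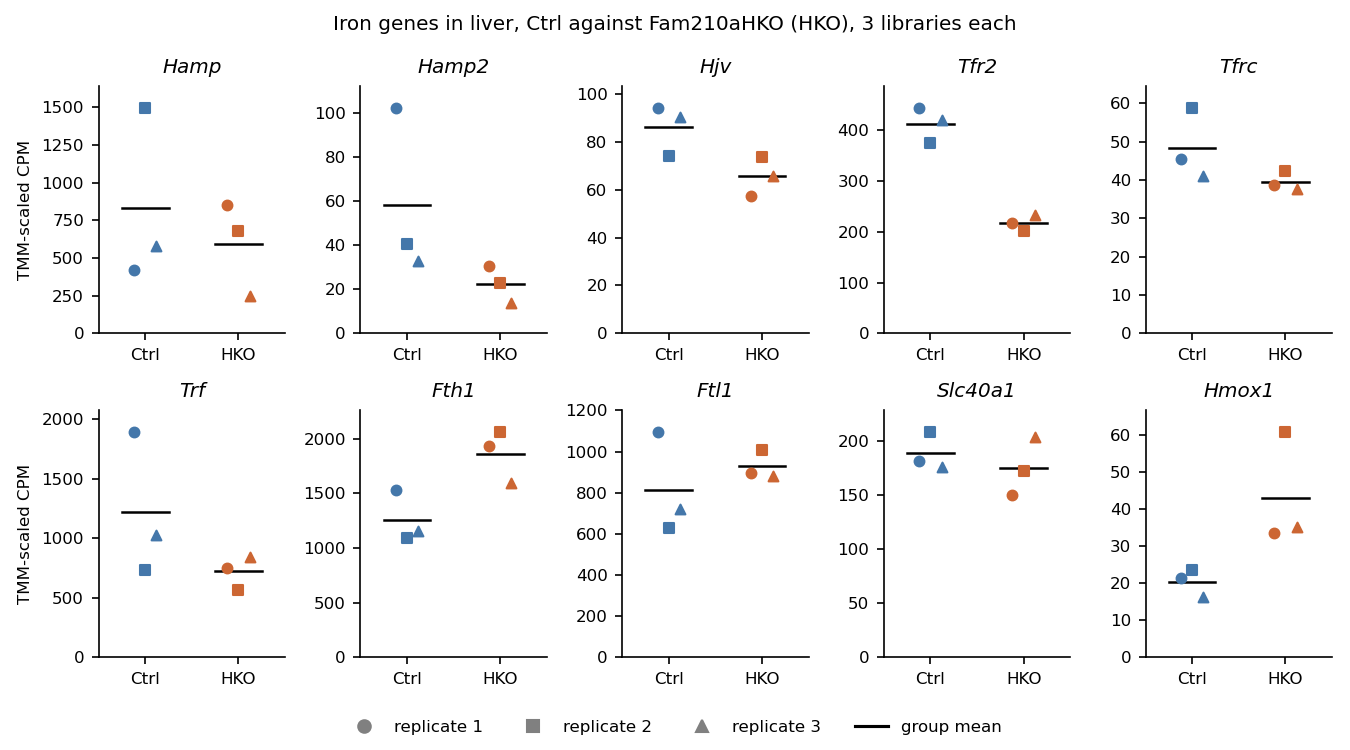
TMM-scaled CPM (vertical axes, each from 0) of the 10 iron genes in the 3 Ctrl and 3 knockout (HKO) libraries; point shapes are replicates and bars are group means. Tfr2, Hmox1, Hamp2, Hjv and Fth1 separate the groups, as do 42.7% of all tested genes, while Hamp spans 422 to 1493 CPM within Ctrl alone.

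Hepcidin is encoded in the mouse by a pair of neighbouring genes. Hamp (chr7:30942368-30944032, mm10) encodes the iron-regulating hormone, and Hamp2 (chr7:30922372-30924681) encodes a close relative. They lie 17.7 kb apart on the same strand. Their coding sequences were 92.5% identical, with a longest shared run of 80 bases, so reads may be split between them in a way the counting does not reveal. RefSeq promoters (GRCm38.p6, strand -) are shown because Hamp2 was called and its neighbour Hamp was not, although their ratio overlapped between groups. Each line gives the 250 bases before the RefSeq start. The Hamp2 window lies inside the counted gene (30922372-30924681), while that of Hamp lies almost wholly outside its gene. Capitals mark 2 motifs, the BMP-response sequence GGCGCC and the STAT-type sequence TTCNNNGAA, both searched on either strand.
Hamp, chr7:30944030-30944279: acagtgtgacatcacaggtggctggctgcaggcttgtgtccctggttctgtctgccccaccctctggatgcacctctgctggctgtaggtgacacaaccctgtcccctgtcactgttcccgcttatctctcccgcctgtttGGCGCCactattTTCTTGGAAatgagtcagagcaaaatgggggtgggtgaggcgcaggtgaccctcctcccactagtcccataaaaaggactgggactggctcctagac
Hamp2, chr7:30924182-30924431: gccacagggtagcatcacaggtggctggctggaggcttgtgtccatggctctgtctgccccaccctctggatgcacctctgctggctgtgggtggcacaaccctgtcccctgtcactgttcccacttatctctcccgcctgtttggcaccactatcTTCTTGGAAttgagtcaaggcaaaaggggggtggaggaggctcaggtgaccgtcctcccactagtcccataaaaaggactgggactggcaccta

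The windows were 89.7% identical over 253 aligned columns. Hamp held GGCGCC from -109 to -104 and TTCTTGGAA from -97 to -89, counted back from the start. Hamp2 held TTCTTGGAA from -94 to -86. At the bases aligned to the Hamp GGCGCC, Hamp2 carried the substitution G4A, counted from the first base of the motif, and had no GGCGCC elsewhere in the window. Of 32851 mouse promoter windows of this length, 9.59% held GGCGCC and 7.02% held TTCNNNGAA. Searches for TGACNNNGC, the core of the antioxidant response element, and CACGTG, the E-box, found neither in these windows, and they occurred in 10.2% and 6.02% of all windows. A match is a description of letters and not a bound site.

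Hamp was 422, 1493 and 581 CPM in the 3 Ctrl livers and 855, 681 and 249 CPM in the knockout livers. The groups overlapped, with the highest and second highest values in opposite groups. Within Ctrl the highest library was 3.53 times the lowest, and within the knockout 3.43 times. The log2 fold change was -0.48 (SE 0.482, adjusted p = 0.497), which turned to 0.015 with library totals and to 0.23 without Ctrl replicate 2. At this spread no difference in Hamp could be told from the variation within a group.

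Hamp2 was 102, 40.4 and 32.7 CPM in Ctrl and 30.7, 22.6 and 13.7 CPM in the knockout livers. All 3 knockout values lay below the lowest Ctrl value, and Ctrl replicate 1 stood far above the rest. Hamp2 fell by 1.38 on the log2 scale (SE 0.399, adjusted p = 0.0248), a 2.61-fold difference in means. Without Ctrl replicate 1 the log2 fold change was -0.72 and the call was lost (adjusted p = 0.108). It was also lost without knockout replicate 2 (0.0545) or 3 (0.0698), with library totals (0.0692) and in DESeq2 (0.067). With the counts of Hamp and Hamp2 summed, the log2 fold change was -0.53 and was not called (adjusted p = 0.425). Hamp made up most of that sum, at 5.90 to 52.5 times Hamp2 per kilobase.

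Tfr2 (chr5:137569840-137587481) encodes transferrin receptor 2, a hepatocyte sensor of iron-loaded transferrin. It was 442, 375 and 420 CPM in Ctrl and 217, 202 and 233 CPM in the knockout livers. The knockout values were tightly grouped and well below every Ctrl value. Tfr2 fell by 0.92 on the log2 scale (SE 0.148, adjusted p = 0.00103), a 1.90-fold difference in means. The call held in all 17 alternatives run for it, with log2 fold changes between -1.004 and -0.48, the smallest fall being that with library totals (adjusted p = 0.0344).

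Hjv (chr3:96525172-96529210) encodes hemojuvelin, the BMP co-receptor. It was 93.8, 74.0 and 90.1 CPM in Ctrl and 57.3, 73.5 and 65.8 CPM in the knockout livers. The groups did not overlap, but Ctrl replicate 2 and knockout replicate 2 were almost level. Its log2 fold change was -0.39 (SE 0.153, adjusted p = 0.0815), and with library totals it was 0.05.

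Hepatocyte markers moved in the same direction as Tfr2 and Hamp2. Of 7 tested markers, 5 fell and none rose, and their summed level was 136050 to 211419 CPM in Ctrl against 77831 to 97912 CPM in the knockout livers. Alb, which was not called (adjusted p = 0.449), made up most of that sum. With library totals 3 of the 7 fell, beside 6.33% of all tested genes. None of the 7 was at 0 in any group. Their part in the results for Tfr2, Hamp2 and the other hepatocyte genes was not tested. In whole liver, fewer cells of a type and less RNA per cell cannot be told apart.

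Of 22 other tested genes that carry or modulate the hepcidin signal, 4 fell, 1 rose and 17 were not called, and their median log2 fold change was -0.19. With library totals 4 were higher and 3 lower, and the median turned to 0.26. All tested genes then had 42.7% called higher, 6.33% called lower and a median of 0.47. With the replicate block 2 were higher and 5 lower. Neither ligand was called. Bmp6, the main iron-responsive ligand, was 4.84 ± 0.378 CPM (SD, n = 3) in Ctrl and 4.84 ± 0.454 CPM in the knockout livers (adjusted p = 0.998), and its log2 fold change with library totals was 0.46 (adjusted p = 0.0901). Bmp2, which is made by sinusoidal endothelial cells, was 21.0 ± 3.28 and 18.6 ± 3.2 CPM (a log2 difference of -0.17 with adjusted p = 0.53, and 0.27 with library totals). Markers of those cells held 2 of 8 that fell and none that rose, with summed levels of 361 to 477 CPM in Ctrl and 233 to 395 CPM in the knockout livers, but with library totals none of the 8 was called. Hfe, which encodes a partner of Tfr2, was 58.0 ± 4.52 and 50.8 ± 9.29 CPM (-0.19 with adjusted p = 0.403, and 0.26 with library totals). Tmprss6, the protease that cleaves hemojuvelin and restrains hepcidin, was 374 ± 48.0 CPM in Ctrl and 225 ± 39.3 CPM in the knockout livers. Tmprss6 fell by 0.74 on the log2 scale (SE 0.173, adjusted p = 0.00899), a call lost with library totals (-0.29, adjusted p = 0.214).

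The other 3 genes of that list that fell kept their calls in all 17 alternatives. Cebpa, a hepatocyte transcription factor known to act on the Hamp promoter, fell by 1.25 on the log2 scale, from 325 ± 78.7 to 136 ± 14.2 CPM (adjusted p = 0.00076). Il6ra, the IL-6 receptor, fell by 1.37, from 75.6 ± 22.3 to 29.3 ± 8.90 CPM (adjusted p = 0.00236). Fgl1, a secreted hepatocyte protein that antagonises BMP signalling, fell by 1.36, from 606 ± 183 to 237 ± 72.0 CPM (adjusted p = 0.00336). Smad5, a transducer of BMP signals, rose by 0.48, from 32.1 ± 3.53 to 44.8 ± 1.92 CPM (adjusted p = 0.029). That last call was lost in 7 of 17 alternatives, including without any of Ctrl replicates 1 and 2 and knockout replicates 1 to 3 (adjusted p up to 0.105).

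Genes known to be induced by BMP signalling through SMAD proteins had a median log2 fold change of 0.51, with 1 of 7 called. Id1, an inhibitor of helix-loop-helix factors, rose by 1.65 on the log2 scale, from 4.90 ± 0.277 to 15.3 ± 6.82 CPM (SE 0.319, adjusted p = 0.00307), and was called in all 17 alternatives. Smad7, a feedback inhibitor, was 9.18 ± 1.36 and 13.7 ± 6.60 CPM (log2 fold change 0.58, adjusted p = 0.227). Atoh8 was 22.2 ± 3.91 and 33.1 ± 14.5 CPM (0.58, adjusted p = 0.132). The spread of both in the knockout livers exceeded the difference in means. Smad7 was called higher without knockout replicate 2 (0.93, adjusted p = 0.0108) and was 0.32 without knockout replicate 3. Atoh8 was 0.14 without knockout replicate 1. With library totals 6 of the 7 were called higher, with a median of 0.96. All tested genes then had 42.7% called higher and a median of 0.47.

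STAT3-linked acute phase genes, which share the IL-6 pathway with Hamp, mostly fell. Of 14 genes, 11 were called lower and 1 higher, and the list's median was -1.65 on the log2 scale. The same numbers were called with library totals, where the median was -1.19 and 6.33% of all tested genes were called lower. Socs3 (-0.67, adjusted p = 0.159) and Itih4 (-0.22, adjusted p = 0.446) were not called. Saa1, serum amyloid A1, fell by 4.49 on the log2 scale, from 227 ± 88.0 to 10.1 ± 0.334 CPM (adjusted p = 2.29e-06). Orm1, orosomucoid 1, fell by 1.91, from 669 ± 133 to 179 ± 37.7 CPM (adjusted p = 9.9e-05). Saa4 fell by 2.77 (adjusted p = 0.0001). Apcs, serum amyloid P, was the exception and rose by 1.48, from 83.4 ± 26.3 to 233 ± 32.2 CPM (adjusted p = 0.000601). Hamp itself was not called, and its difference from these genes was not tested. The hepatocyte marker levels given above moved alongside the acute phase genes, and their part in that fall was not tested.

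**Figure D2:**
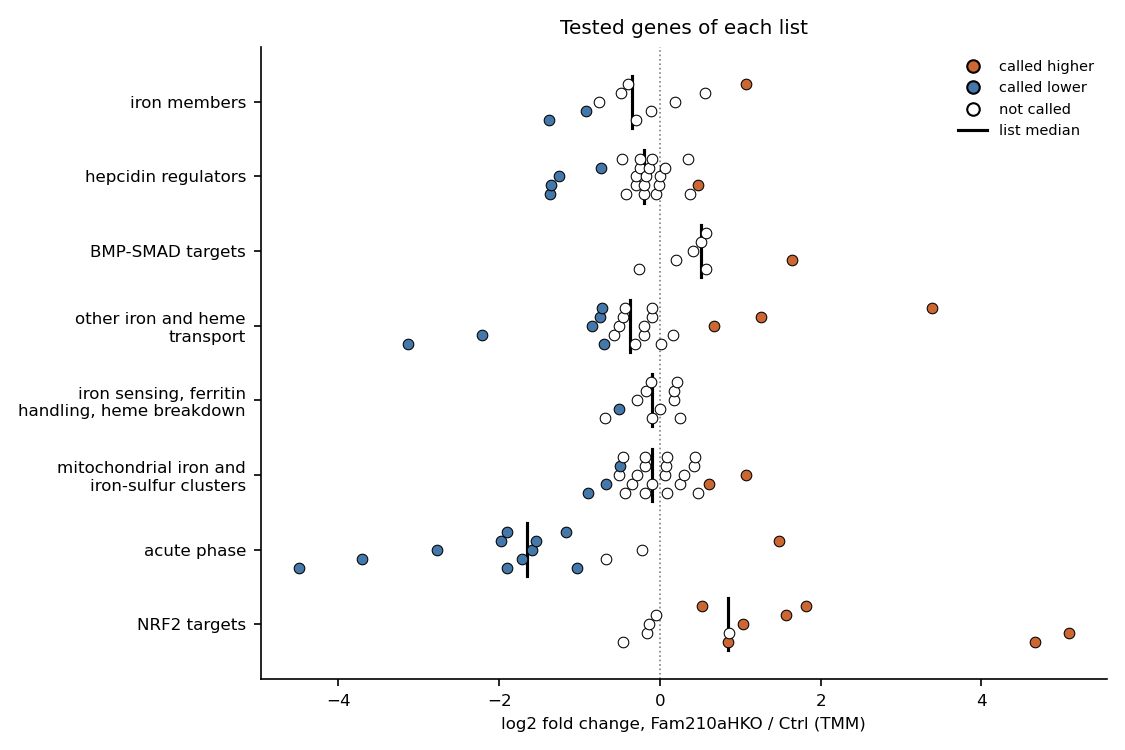
Log2 fold changes, Fam210aHKO over Ctrl with TMM scaling (horizontal axis), of each tested gene in the iron group and 7 related lists (rows); filled points were called at an adjusted p under 0.05 and the vertical bar is the list median. Acute phase genes lie to the left, with 11 of 14 called lower, and NRF2 targets to the right, with 7 of 12 called higher. Among those 7, Slc7a11 had counts of 1, 0 and 0 in Ctrl.

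Uptake and storage genes include 4 that carry an iron-responsive element. The sequences are shown because they separate genes whose mRNA is regulated by decay from genes regulated at translation. The search was for CNNNNNCAGTGN, its last base not G, with the 5 bases on either side of the loop paired (G with T allowed), in the transcribed strand of untranslated regions (UTRs) of GENCODE M21, GRCm38. Capitals mark the bulged C and the six-base loop of each 29-base site. Fth1, Ftl1 and Slc40a1 have 1 site each in the 5′ UTR, where binding blocks translation, and Tfrc has 4 in the 3′ UTR, where binding slows decay.
Fth1, chr19:9982732-9982760, strand +: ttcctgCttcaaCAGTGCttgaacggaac
Ftl1, chr7:45459779-45459807, strand -: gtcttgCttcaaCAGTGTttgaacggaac
Slc40a1, chr1:45925465-45925493, strand -: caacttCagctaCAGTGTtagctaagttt
Tfrc, chr16:32631219-32631247, strand +: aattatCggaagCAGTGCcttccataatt
Tfrc, chr16:32631598-32631626, strand +: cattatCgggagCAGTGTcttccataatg
Tfrc, chr16:32631663-32631691, strand +: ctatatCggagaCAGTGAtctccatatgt
Tfrc, chr16:32631710-32631738, strand +: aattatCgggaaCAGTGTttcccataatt

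Such a match occurred in 123 of 21901 protein-coding genes (0.562%). No site was found in the UTRs of the other 6 members.

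Tfrc (chr16:32608920-32632794) encodes transferrin receptor 1, which imports iron-loaded transferrin. It was 45.5, 58.7 and 41.2 CPM in Ctrl and 38.6, 42.4 and 37.7 CPM in the knockout livers. The groups overlapped, with Ctrl replicate 2 the highest. On the log2 scale the difference was -0.29 (SE 0.161, adjusted p = 0.207), and with library totals it was 0.17. The mRNA of the receptor that carries the 4 decay-protecting sites was thus not called different in either scaling.

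Trf (chr9:103204001-103230444) encodes transferrin, the plasma iron carrier secreted by hepatocytes. It was 1886, 737 and 1027 CPM in Ctrl and 753, 568 and 842 CPM in the knockout livers. Ctrl replicate 1 was far above all others, and the remaining values overlapped. Trf differed by -0.75 on the log2 scale (SE 0.311, adjusted p = 0.0962). Trf was called with the replicate number as a block (-0.66, adjusted p = 0.0268), in DESeq2 (-0.77, adjusted p = 0.022) and without Ctrl replicate 2 (-1.03, adjusted p = 0.0247), while without Ctrl replicate 1 the value was -0.30. Trf shares 2108 exon bases with Gm20425 on the same strand, which was listed at 0 in every library.

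Fth1 (chr19:9982703-9985092) encodes the ferritin heavy chain, which oxidises iron for storage. It was 1527, 1089.5 and 1155 CPM in Ctrl and 1935, 2055 and 1594 CPM in the knockout livers. The groups did not overlap, although Ctrl replicate 1 and knockout replicate 3 lay close together. The log2 fold change was 0.57 (SE 0.217, adjusted p = 0.0764), a 1.48-fold difference in means that missed the threshold. Fth1 was called higher with the replicate block (adjusted p = 0.0269), with library totals (1.01, adjusted p = 0.00457) and in 3 of the other alternatives. Its log2 fold change was positive in all 18, between 0.46 and 1.01.

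Ftl1 (chr7:45457944-45459884) encodes the ferritin light chain, which helps form the iron core. It was 1093, 628 and 719 CPM in Ctrl and 898, 1009 and 881 CPM in the knockout livers. The highest value of all was in Ctrl replicate 1, and the groups overlapped. Its log2 fold change was 0.19 (SE 0.222, adjusted p = 0.56), and 0.63 with library totals (adjusted p = 0.0458). It was 0.45 without Ctrl replicate 1 and 0.02 without Ctrl replicate 2, neither called. The pseudogene Ftl1-ps1, whose coding sequence is 99.6% identical to that of Ftl1, had at most 2.31% of the counts of Ftl1 in any library.

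Slc40a1 (chr1:45908068-45926523) encodes ferroportin. It was 182, 208 and 176 CPM in Ctrl and 150, 172 and 204 CPM in the knockout livers. The ranges overlapped over most of their span. On the log2 scale the difference was -0.11 (SE 0.156, adjusted p = 0.661), and 0.35 with library totals (adjusted p = 0.085). Ferroportin is also abundant in Kupffer cells, whose 8 markers held 1 gene that rose (Marco) and 1 that fell (C6), with summed levels of 456 to 560 CPM in Ctrl and 302 to 613 CPM in the knockout livers.

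Hmox1 (chr8:75093621-75100589) encodes heme oxygenase 1, which frees iron from heme. It was 21.3, 23.5 and 16.3 CPM in Ctrl and 33.4, 60.6 and 35.1 CPM in the knockout livers. All 3 knockout values were above the highest Ctrl value, and knockout replicate 2 was the highest. Hmox1 rose by 1.08 on the log2 scale (SE 0.238, adjusted p = 0.00654), a 2.11-fold difference in means. The call held in all 17 alternatives, with log2 fold changes between 0.75 and 1.53 (adjusted p up to 0.0372).

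Hmox1 is also expressed by macrophages. Of 8 tested markers of monocyte-derived macrophages, 5 rose and none fell, and their summed level was 83.9 to 126 CPM in Ctrl and 336 to 518 CPM in the knockout livers. Lpl and Spp1 made up most of that sum, at 164 and 200.04 CPM on average in the knockout livers, and Spp1 is also a cholangiocyte marker. Gpnmb, Trem2 and Cd9 also rose, while Ccr2, Ly6c2 and Cx3cr1 were not called. Gpnmb (counts of 0, 7 and 7 in Ctrl) and Trem2 (6, 2 and 9) passed the filter through the knockout group alone. None of the markers was at 0 in every library of a group, though Gpnmb was at 0 in Ctrl replicate 1. Their part in the rise of Hmox1 was not tested. Erythroid RNA, another source of heme genes, summed to 86.9 to 88.9 CPM in Ctrl and to 24.97 to 239.5 CPM in the knockout livers. The upper value was in replicate 3, where Hmox1 was 35.1 CPM. Alas2 made up most of the sum in Ctrl (47.0, 45.8 and 67.9 CPM), and Hba-a1 was 112 CPM of it in knockout replicate 3. The sum is thus no steady measure of red-cell RNA. Of 6 tested erythroid markers, 2 fell (Alas2 and Klf1) and none rose, whereas with library totals 3 were called higher and 2 lower. All tested genes then had 42.7% called higher and 6.33% lower.

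Hmox1 is a known target of the oxidative stress factor NRF2. Of 12 other tested NRF2 targets, 7 rose, none fell and 5 were not called, and their median log2 fold change was 0.85. With library totals 8 rose and the median was 1.28, beside 42.7% called higher and a median of 0.47 for all tested genes. Abcc4, an organic anion exporter, rose by 5.09 on the log2 scale, from 3.28 ± 0.678 to 111 ± 20.8 CPM (adjusted p = 5.27e-07). Srxn1, sulfiredoxin, rose by 1.82, from 62.8 ± 2.54 to 222 ± 30.6 CPM (adjusted p = 1.72e-05). Pgd, an NADPH-forming enzyme of the pentose phosphate pathway, rose by 1.56, from 26.1 ± 2.03 to 77.2 ± 10.9 CPM (adjusted p = 4.81e-05). Slc7a11, 1 of the 7, had counts of 1, 0 and 0 in Ctrl and 12, 18 and 18 in the knockout livers. It passed the filter through the knockout group alone, so its fold change (4.66) has no firm base and is not compared. Abcc4, Srxn1 and Pgd rose more than Hmox1 in value. Nqo1 (1.04), Me1 (0.85) and Txnrd1 (0.52) rose less. These differences from Hmox1 were not tested. Those not called were Osgin1 (0.86), Taldo1 (-0.05), Gclc (-0.13), G6pdx (-0.16) and Gclm (-0.46). When single libraries were left out, 5 to 7 of the list were called higher and 0 to 1 lower. Nfe2l2, which encodes NRF2, was 68.5 ± 6.89 and 81.8 ± 2.40 CPM (0.26, adjusted p = 0.187), and with library totals it was called higher at 0.71.

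**Figure D3:**
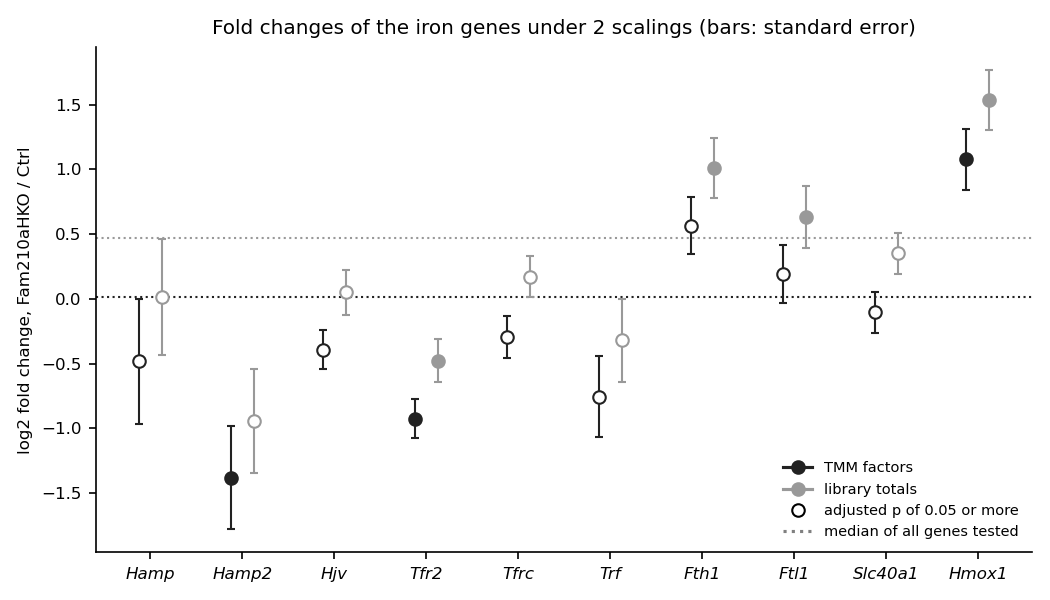
Log2 fold change, Fam210aHKO over Ctrl (vertical axis), of each iron gene (horizontal axis) with TMM scaling and with library totals; bars are SE, filled points were called and dotted lines are the medians of all tested genes. Tfr2 lies below 0 and Hmox1 above 0 in both, while Hamp, Hjv, Tfrc and Slc40a1 change sign.

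Within-library ratios of counts per kilobase do not depend on the scaling. Fth1 to Ftl1 was 2.16, 2.69 and 2.49 in Ctrl and 3.33, 3.15 and 2.80 in the knockout livers, with no overlap. Fth1 to Tfrc was 239.8, 133 and 200.2 in Ctrl and 358, 346 and 302 in the knockout livers, again with no overlap. Iron-regulatory proteins act on Fth1 at translation, which a ratio of mRNA counts does not measure. Tfr2 to Tfrc was 13.9, 9.11 and 14.5 in Ctrl and 8.01, 6.78 and 8.82 in the knockout livers, lower in all 3. Each of these reached an exact two-sided permutation p of 0.1, the smallest that 3 against 3 allows, and an adjusted p of 0.167 over 5 ratios. Hamp to Hamp2 (exact permutation p = 0.6) and Trf to Tfrc (exact permutation p = 0.5) overlapped between groups. The ratios were chosen after the values were seen, and none passed the threshold after adjustment.

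**Figure D4:**
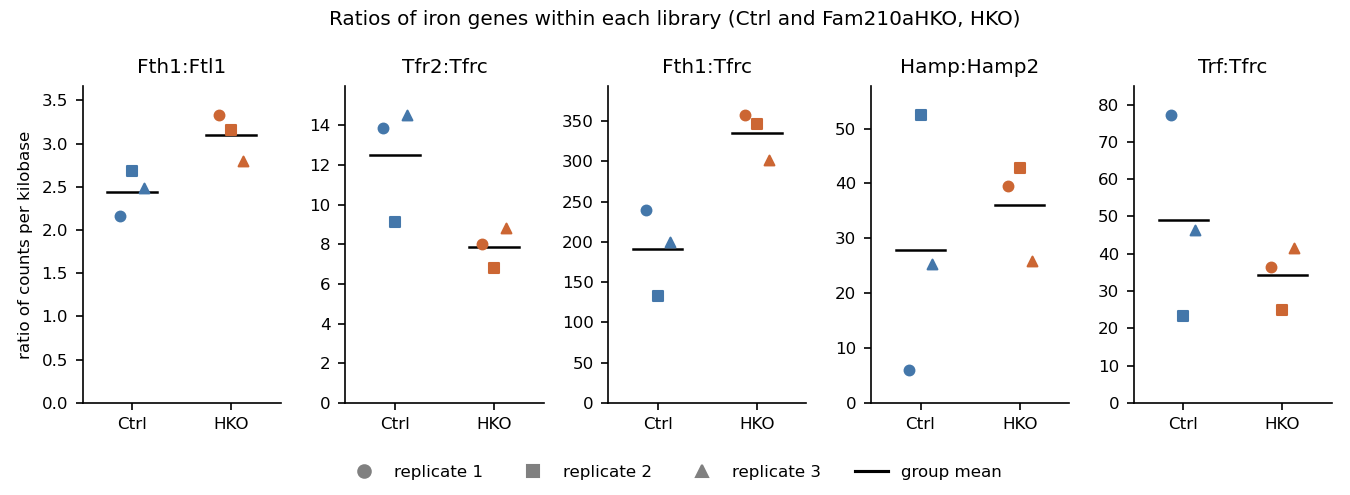
Ratios of counts per kilobase between pairs of iron genes (vertical axes, each from 0) in each of the 3 Ctrl and 3 knockout (HKO) libraries; points are libraries and bars are group means. Fth1:Ftl1 and Fth1:Tfrc are higher and Tfr2:Tfrc lower in every knockout library than in every Ctrl library.

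Per kilobase of gene length, the mean Ctrl levels ran from Hamp (2029 ± 1409 CPM per kb) and Fth1 (1452) through Ftl1 (607), Trf (366), Hamp2 (100), Tfr2 (95.1), Hjv (42.4), Slc40a1 (21.0) and Hmox1 (11.6) to Tfrc (7.83). Over the Ctrl libraries Hamp overlapped Fth1, Ftl1 overlapped Trf, Hamp2 overlapped Tfr2 and Hmox1 overlapped Tfrc. The other neighbours did not overlap. In the knockout livers the means of Fth1 (2149 CPM per kb) and Hamp (1452 ± 761) were highest, though Hamp lay below Ftl1 in replicate 3. Hmox1 (24.6) and Slc40a1 (19.5) overlapped there.

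Other carriers and transporters of iron and heme were mixed: of 20 tested, 3 rose, 6 fell and 11 were not called. The median log2 fold change was -0.37. With library totals it was 0.07, with 5 higher and 2 lower. All tested genes then had 42.7% called higher, 6.33% called lower and a median of 0.47. Hp, haptoglobin, which binds free hemoglobin, fell by 2.22, from 4476 ± 577 to 963 ± 383 CPM (adjusted p = 0.000504). Scara5, a ferritin receptor, fell by 3.13, from 3.67 ± 0.648 to 0.413 ± 0.243 CPM (adjusted p = 0.000331). Abcg2, an exporter of heme and other compounds, fell by 0.84 (adjusted p = 0.00162), and was not called with library totals (-0.39, adjusted p = 0.0579). Flvcr1, described as a heme exporter, rose by 1.26 (adjusted p = 0.00287) and the endosomal heme carrier Slc48a1 by 0.68, from 43.8 ± 1.68 to 70.0 ± 4.20 CPM (adjusted p = 0.00319). Both were called in all 17 alternatives. The other gene that rose, Steap1, had counts of 0, 1 and 3 in Ctrl and 35, 16 and 15 in the knockout livers. It passed the filter through the knockout group alone. Without Ctrl replicate 3 or knockout replicate 2, the list's count of genes that fell was 3.

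The plasma ferroxidase Cp was 1648 ± 265 CPM in Ctrl and 1004 ± 183 CPM in the knockout livers and fell by 0.71 (adjusted p = 0.0311), a call lost in 5 of 17 alternatives (-0.26 with library totals, adjusted p = 0.327). Slc39a14, the hepatocyte importer of iron not bound to transferrin, was 154 ± 33.9 and 108 ± 33.5 CPM (-0.51, adjusted p = 0.122). It was called lower with the replicate block (-0.53, adjusted p = 0.0354) and without Ctrl replicate 2 (-0.69, adjusted p = 0.0492) or knockout replicate 1 (-0.81, adjusted p = 0.0168). It was -0.07 with library totals and -0.35 without knockout replicate 3, neither called.

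Among 11 tested genes of iron sensing, ferritin handling and heme breakdown, 1 fell and 10 were not called, with a median of -0.10. With library totals 5 were higher and none lower, with a median of 0.35. All tested genes then had 42.7% called higher and a median of 0.47. Aco1, which encodes iron-regulatory protein 1, was 219 ± 9.93 and 153 ± 15.0 CPM and fell by 0.51 (adjusted p = 0.0186), a call lost with library totals (-0.06), with no filter (adjusted p = 0.0548) and without knockout replicate 1 or 2. Ireb2, which encodes iron-regulatory protein 2, was 108 ± 16.5 and 89.2 ± 3.49 CPM (-0.28, adjusted p = 0.187; 0.17 with library totals). Ncoa4, the receptor for ferritin breakdown, was 142 ± 58.6 and 88.3 ± 11.9 CPM (-0.68, adjusted p = 0.0654). Ncoa4 was called lower with the replicate block (-0.61, adjusted p = 0.00844), in DESeq2 (adjusted p = 0.0228) and without Ctrl replicate 1 (-0.93, adjusted p = 0.0152). Without Ctrl replicate 2 it was -0.33, and with library totals -0.21, neither called. The list's count of genes that fell was 2 with the block, in DESeq2 and without Ctrl replicate 1.

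Of 23 tested genes of mitochondrial iron import and iron-sulfur cluster assembly, 2 rose, 3 fell and 18 were not called, with a median of -0.10. With library totals 10 were higher and none lower, with a median of 0.36. All tested genes then had 42.7% called higher and a median of 0.47. Hspa9, the mitochondrial chaperone that also serves cluster transfer, rose by 1.07, from 586 ± 20.9 to 1230 ± 240 CPM (adjusted p = 0.00219). Iba57, a late-acting assembly factor, rose by 0.61 (adjusted p = 0.0265), a call lost in 6 of 17 alternatives. The 3 that fell were Abcb10 (-0.89, adjusted p = 0.00953), Fdx1 (-0.67, adjusted p = 0.0104) and Cisd1 (-0.49, adjusted p = 0.0347), and none of the 3 was called with library totals. Cisd1 was lost in 7 of 17 alternatives, among them leaving out any library but Ctrl replicate 3 (adjusted p up to 0.12). With the replicate block 6 genes of the list fell. Without Ctrl replicate 1 or knockout replicate 2, 1 gene of the list was called higher.

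By likeness of log2 CPM over the 6 libraries, the genes nearest to Tfrc were Psma5, Creb3 and U2af1, with root mean square differences of 0.0429, 0.0448 and 0.0479. For Hamp the nearest were AA986860, Rbm12b2 and Rbm12b1, much farther away at 0.356, 0.393 and 0.399.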

How the data were processed

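Liver RNA was sequenced after poly-T selection of mRNA, per the labels' protocols, in 3 Ctrl and 3 Fam210aHKO samples grouped by title. Whole-number counts per gene were deposited by the authors without normalization. The FPKM values, deposited by the authors in a separate table, were used in alternatives alone. They are counts per kilobase of the listed gene length and per 1e6 of a library size that is not the count total. On log2(FPKM + 1) the median log2 fold change of all tested genes was -0.03, beside 0.47 with library totals. The build mm10 and the tools STAR, featureCounts, Trimmomatic, FastQC and DESeq2 are named per the submitters' processing notes, without versions. The handling of strand and of multimapping reads was not recorded there. Without strand, reads of overlapping antisense genes cannot be separated.

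Counts were fitted in edgeR 4.0.16 (R 4.3.3) with group as the only factor, filterByExpr at a minimum count of 10, TMM factors and the quasi-likelihood test. P-values were two-sided and adjusted by Benjamini-Hochberg over 13706 genes, with calls under 0.05. The SE was obtained by dividing the absolute log2 fold change by √F. Alternatives were other scalings, filters, DESeq2 1.42.0, limma 3.58.1 (voom, and log2(FPKM + 1) or log2(FPKM + 0.1)), leaving out each library, a replicate block and summed paralog or pseudogene counts. The legacy quasi-likelihood test was added after the data were seen. The script was tested on simulated data. A count of 3 was 0.132 to 0.261 CPM.

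Replicate numbers are shared by the groups. Deviations from group means correlated at 0.245, 0.182 and 0.155 between libraries of the same number and at -0.141 to -0.0262 otherwise. Centring on group means ties these values together, so positive ones for the same number push the others down. The main fit did not use the numbers, and the replicate block was an alternative alone. The labels do not say what a number stands for.

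Members and lists were chosen with earlier results of these data known. Named from each list were up to 3 called genes in the direction with more calls, taken by smallest p, and up to 2 in the other, plus 12 genes whatever their result, among them Bmp6, Tmprss6 and Ncoa4. Nfe2l2, Marco, C6, Alb, the macrophage markers, Alas2, Klf1, Hba-a1, Steap1 and Lars2 were named after their values were seen. So were Socs3, Itih4 and the NRF2 targets other than Abcc4, Srxn1 and Pgd. Likeness is the root mean square difference of log2 CPM, centred on the Ctrl mean. Promoters are from RefSeq, matched by symbol for 6 of the 10 members, and IRE sites were searched in GENCODE M21 with Biopython 1.88.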

Additional observations from a re-analysis of the deposited data

How the results depend on the processing

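Tfr2 and Hmox1 kept their direction and their calls in all 17 alternatives. With library totals the table had 5846 genes higher and 868 lower, the genes of the 7 related lists 39 higher and 16 lower (15 and 25 with TMM), and the members 3 higher and 1 lower. The log2 fold changes then were 1.01 for Fth1 and 0.63 for Ftl1, both called, and -0.94 for Hamp2, not called. They turned sign, without a call, for Hamp (0.015), Hjv (0.0525), Slc40a1 (0.35), Tfrc (0.17), Bmp2 (0.27), Hfe (0.26) and Ireb2 (0.17). Fth1 was also called with no filter (0.60), in DESeq2 (0.55) and with the replicate block (0.57), each giving 2 members higher. Trf was called in DESeq2 (-0.77) and with the replicate block (-0.66). No other call of a member changed with the block. Hamp2 was not called in DESeq2 (-1.40), in the legacy test (-1.38, leaving 1 member lower) or summed with Hamp (-0.53). Bmp6, near 0 with TMM, was -0.0114 with median-of-ratios scaling, -0.0108 with CPM above 1 in 3 libraries and in DESeq2, -6e-04 in limma-voom, -0.042 and -0.0634 on FPKM, and 0.46 with library totals.

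When single libraries were left out there were 1 to 2 members higher and 1 to 4 lower. The table then had 1338 to 1896 genes higher and 1335 to 1834 lower. The log2 fold change ranged from 0.46 to 0.72 for Fth1 (called without Fam210aHKO replicate 3, adjusted p = 0.0496), from -0.85 to 0.23 for Hamp, from -1.70 to -0.72 for Hamp2, from -0.50 to -0.32 for Hjv (called without Ctrl replicate 2, adjusted p = 0.0398), from -1.03 to -0.30 for Trf, from 0.02 to 0.45 for Ftl1 and from -0.0712 to 0.0528 for Bmp6. The cause was not tested for any of these changes. For the related lists, genes called lower ranged over 3 to 8 for transport, 4 to 5 for hepcidin regulators and 0 to 2 for iron sensing. With the block, BMP-SMAD targets had 2 genes higher, hepcidin regulators 2 higher transport 9 lower, iron sensing 2 lower and mitochondrial iron genes 6 lower.

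With 3 libraries a group, the SE of Hamp (0.482) was about as large as its log2 fold change, so the spread within groups limits what can be said of hepcidin. Interpretation of the members with library totals and with TMM differs by the shift of all genes, and the data hold no measure of total RNA per cell. Protein levels, iron content and hepcidin in plasma were not analysed here.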
